A study of Bos taurus with 24 samples.

Results

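CD38 and CD274 are surface proteins through which immune cells tune their own activity and that of their neighbours, and their mRNA was followed here in bovine monocyte-derived macrophages (MDMs). CD38 was taken by its Ensembl gene identifier, ENSBTAG00000013569, and CD274 by ENSBTAG00000000095, the identifier that the study's gene lists pair with its symbol. These are 2 of the 24616 genes in the deposited files. The pair was chosen with measured values of these libraries known, namely the difference between high and low responders in the response to E. coli at 18 hours after treatment. That difference and its parts at 18 hours are therefore given below as descriptions without a test, and tests are kept for the 3 hours libraries, for responses averaged over the groups and for changes with time.

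The cells came from 6 lactating Holstein cows, 3 classified as high and 3 as low responders by the nitric oxide that their MDMs released in culture after contact with E. coli. All wells of both groups held MDMs grown from adherent blood monocytes with bovine GM-CSF, a factor that drives monocytes towards macrophages. For each cow and time point, 1 well was left untreated as control and 1 received E. coli inactivated with PFA at a multiplicity of infection of 5, and RNA was taken at 3 or 18 hours. This gave 8 conditions with 3 libraries each and 24 mRNA libraries in all. The groups are small, they were ranked on an in-vitro test that uses the same bacterium, and inactivated bacteria do not multiply, which limits them as a model of infection.

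CD38 is an ectoenzyme that consumes NAD and makes cyclic ADP-ribose, a messenger that releases calcium inside cells, and it is carried by activated lymphocytes and by inflammatory macrophages. CD274, also called PD-L1, is the ligand of the receptor PD-1 on T cells and restrains them when it is bound. In macrophages of other species, bacterial products and interferon raise both genes, with JAK kinases and the factor IRF1 leading from the interferon receptors to CD274.

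Expected counts per library, the estimated numbers of read pairs assigned to genes, summed to between 6297190 and 20936554. CD38 had between 25 and 2010 counts per library and CD274 between 186 and 6934, so both were measured in every library. Levels are given as normalised CPM, read counts scaled to a common library size, computed with edgeR's TMM method. CD38 had its lowest value, 2.14 CPM, in a control well at 18 hours, with an exact 95% Poisson interval from 1.60 to 2.81 that covers counting error only. Of 11 macrophage or monocyte markers, 3 could be matched to an identifier, and all 3 were detected in the 24 libraries: CD68 at 1215 to 2671 TPM, CD14 at 40.98 to 320.7 TPM and MSR1 at 15.5 to 788 TPM. CD79A of B cells, the only matched marker of 7, stayed between 0.17 and 2.67 TPM, and no marker of T cells, dendritic cells or neutrophils could be matched. In such bulk libraries, fewer cells that express a gene and less RNA per cell cannot be told apart.

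Library codes carry a letter, and control wells with the same letter within a responder group were taken as the same cow at both times. The labels do not state this, so cows are named by letter below (M, A and I among high, A, I and E among low responders) and the letters enter no main test.

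At 3 hours after treatment, both genes were higher in exposed than in control wells of every cow. In the high responders, CD38 was at 13.1 CPM in the control well of cow M, 10.8 in that of cow A and 12.6 in that of cow I. Their exposed wells held 87.1, 99.1 and 106 CPM in the same order. The 3 high responders thus lay close together in both kinds of well, with a coefficient of variation of 10.2% in control and 9.76% in exposed wells.

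The low responders were spread widely. CD38 was at 2.52 CPM in the control well of cow A, 14.7 in that of cow I and 27.1 in that of cow E, and at 29.5, 58.2 and 117 CPM in their exposed wells. Control and exposed wells did not overlap in this group either, but cow A lay lowest and cow E highest in both, and the coefficient of variation was 83.3% in control and 65.2% in exposed wells. The spread of the groups was not compared by a test.

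CD274 varied among cows in both groups. In the high responders its control wells held 41.4 CPM in cow M, 43.2 in cow A and 13.1 in cow I, and the exposed wells 429, 385 and 194.2 CPM. In the low responders the control wells held 24.9 CPM in cow A, 54.1 in cow I and 39.5 in cow E, and the exposed wells 195, 411 and 223 CPM. Every exposed well was far above every control well, and the high and low groups overlapped in both.

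**Figure D1:**
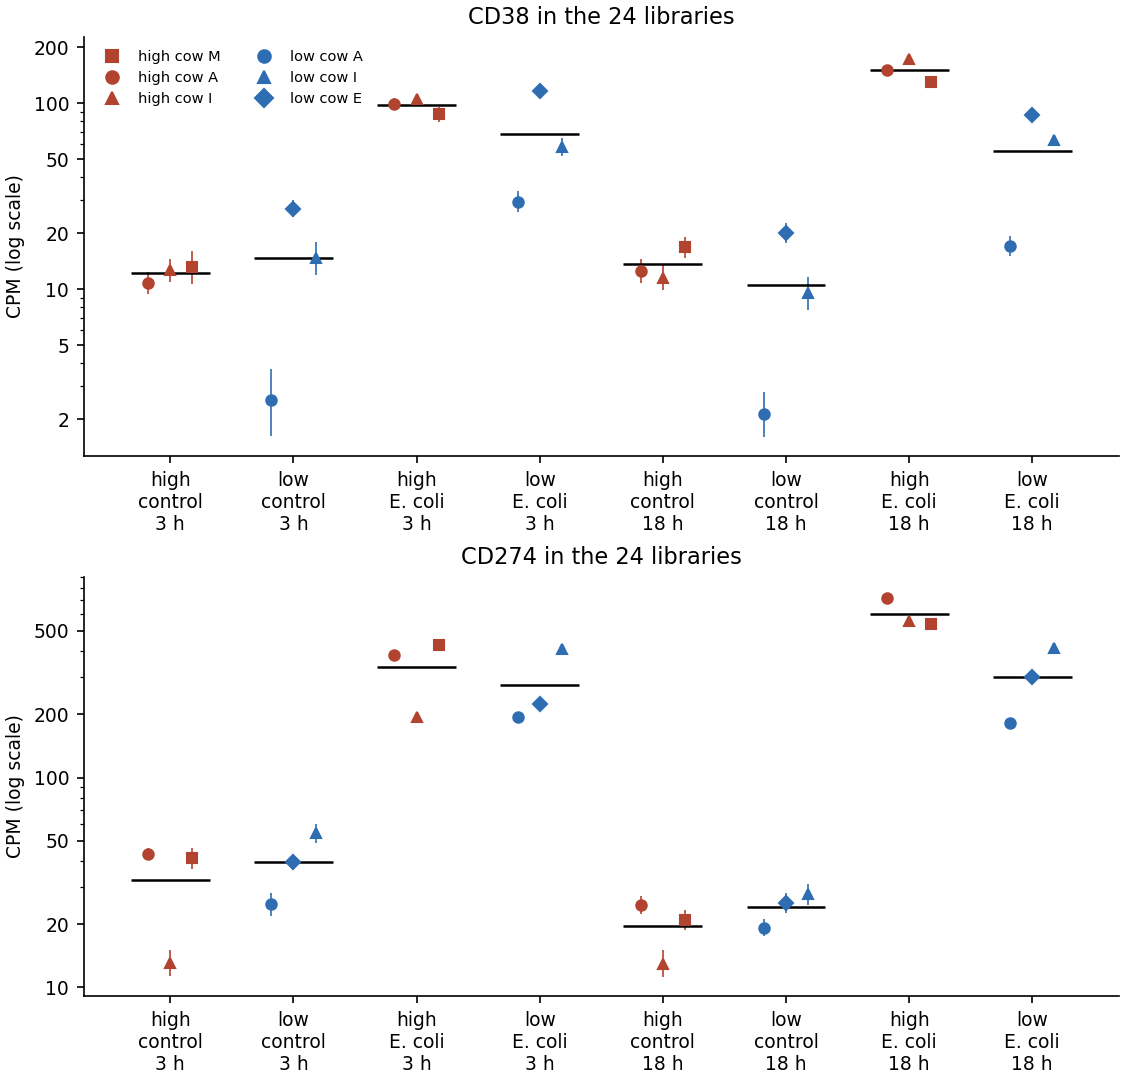
CPM of CD38 (top) and CD274 (bottom) on a log scale in the 8 conditions, 1 point per library with its exact 95% Poisson interval (counting error only), shaped by cow and coloured by responder group, with a bar at the mean of 3 libraries. CD38 is tight in the high responders and wide in the low responders, where cow A is lowest in all 4 wells. CD274 separates exposed from control wells in both groups.

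Averaged over both groups at 3 hours, CD38 rose 6.70-fold (log2 fold change 2.75, SE 0.18, adjusted p = 4.75e-06, edgeR's quasi-likelihood test with Benjamini-Hochberg adjustment). CD274 rose 8.94-fold by the same test (log2 fold change 3.16, SE 0.12, adjusted p = 2.87e-07). A gene is called here when its adjusted p is below 0.05 and its fold change above 1.5, and 13.5% of the 11264 genes tested were called higher in this comparison. Only 1.91% of the tested genes had a larger log2 fold change than CD38, and 1.41% a larger one than CD274.

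Each responder group alone gave the same calls. In the high responders at 3 hours, where 15.7% of genes were called higher, CD38 rose 8.35-fold (log2 3.06, SE 0.25, adjusted p = 2.94e-05) and CD274 11.4-fold (log2 3.52, SE 0.18, adjusted p = 2.51e-06, edgeR). In the low responders, where 9.93% were called higher, CD38 rose 5.38-fold (log2 2.43, SE 0.25, adjusted p = 0.000276) and CD274 6.998-fold (log2 2.81, SE 0.17, adjusted p = 1.47e-05, edgeR). Without the term for the cow, the log2 fold change of CD38 in the low responders was 2.22 and its call was lost (adjusted p = 0.0547, edgeR).

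The responses of the groups at 3 hours were then compared with each other. CD38 rose between 6.65-fold and 9.21-fold within the cows of the high group and between 3.97-fold and 11.7-fold within those of the low group, so the cows of the groups overlapped. The largest of these changes was that of low responder A, which started from the lowest control level and gained only 27.0 CPM, whereas low responder E gained 89.7 CPM with a 4.31-fold change. On the log2 scale, the response of CD38 was higher in the high responders by 0.63 (SE 0.35, 95% interval -0.15 to 1.42), and this did not pass the test (adjusted p = 0.480, edgeR).

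CD274 rose between 8.90-fold and 14.9-fold within high responders and between 5.66-fold and 7.84-fold within low responders at 3 hours. The cows of the groups did not overlap, but the share of all genes that separate in this way was not counted. The difference between the responses was 0.71 on the log2 scale (SE 0.23, 95% interval 0.19 to 1.23) and did not pass the test over all genes (adjusted p = 0.292, edgeR). Neither gene was called, in a comparison in which 0.178% of the genes were. Of the tested genes, 11.6% had a larger difference than CD38 and 9.56% a larger one than CD274.

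Wells of one kind were also compared directly between the groups at 3 hours. In control wells, CD38 was at 12.2 ± 1.24 CPM in high and 14.8 ± 12.3 CPM in low responders (SD, n = 3), and CD274 at 32.6 ± 16.9 against 39.5 ± 14.6 CPM. The log2 differences, high minus low, were -0.28 for CD38 (SE 0.66, adjusted p = 0.998, edgeR) and -0.29 for CD274 (SE 0.47, adjusted p = 0.998, edgeR), in a comparison that called 0.00906% of genes. In wells without bacteria, no difference between the groups was detectable in either gene with 3 cows each.

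In exposed wells, CD38 was at 97.3 ± 9.50 CPM in high and 68.2 ± 44.5 CPM in low responders, and CD274 at 336 ± 125 against 277 ± 118 CPM (SD, n = 3). The log2 differences were 0.55 for CD38 (SE 0.41, adjusted p = 0.572, edgeR) and 0.31 for CD274 (SE 0.36, adjusted p = 0.730, edgeR), with 0.0839% of genes called. Without the exposed well of low responder A the difference of CD38 was 0.17, and without that of low responder E it was 1.18, so that this value rests on which low responder is counted. For CD274 the difference was 0.0842 without the exposed well of high responder M and 0.69 without that of low responder I.

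At 18 hours after treatment, CD38 in the high responders was at 16.8 CPM in the control well of cow M, 12.5 in that of cow A and 11.5 in that of cow I. The exposed wells held 130.3, 150.1 and 172 CPM. In the low responders, control wells held 2.14 CPM in cow A, 9.51 in cow I and 20.1 in cow E, and exposed wells 17.1, 63.1 and 86.5 CPM. Every exposed well of a high responder was above every exposed well of a low responder, while the control wells of the groups overlapped. The pair was selected on the difference in response between the groups at this time. How many other genes separate in this way was not counted.

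CD274 at 18 hours was at 20.98 CPM in the control well of high responder M, 24.7 in that of A and 12.99 in that of I, and at 539, 717 and 559 CPM in their exposed wells. The low responders had 19.3 CPM in the control well of cow A, 27.9 in that of cow I and 25.3 in that of cow E, and 183, 416 and 301 CPM in the exposed wells. Here too the exposed wells of the groups did not overlap and the control wells did, with the same limits.

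Averaged over both groups at 18 hours, CD38 rose 7.91-fold (log2 2.98, SE 0.14, adjusted p = 7.32e-08) and CD274 19.1-fold (log2 4.26, SE 0.12, adjusted p = 3.79e-09, edgeR). In this comparison 15.1% of the 11759 genes tested were called higher, 1.68% had a larger log2 fold change than CD38 and 0.825% a larger one than CD274.

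The pair was selected on the difference between the groups at 18 hours, which is given here as a description. Within cows, CD38 rose between 7.76-fold and 14.9-fold in high responders and between 4.31-fold and 7.96-fold in low responders, so that the least responsive high responder, M, and the most responsive low responder, A, crossed. CD274 rose between 25.7-fold and 43.1-fold in high and between 9.48-fold and 14.9-fold in low responders, with no overlap. The share of all genes with such a separation was not counted. The fitted difference of the log2 responses was 0.94 for CD38 and 1.42 for CD274, against a background of 1.34% of genes called higher in high responders. Larger differences were held by 3.86% of genes for CD38 and 1.44% for CD274. High places here follow from the choice of the pair and are not read as a result. In exposed wells alone the order of the genes was the other way round. The log2 difference between the groups, high minus low, was 1.44 for CD38 and 1.01 for CD274. In control wells it was 0.38 for CD38 (SE 0.65) and -0.31 for CD274 (SE 0.24), and the control wells of the groups overlapped in both genes.

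PRF1 of cytotoxic lymphocytes, the only matched marker of 5 for NK cells, was low in all libraries but higher in exposed than in control wells at 18 hours. It lay between 2.09 and 2.50 TPM in exposed wells of high responders at 18 hours and between 0.89 and 2.14 TPM in those of low responders, and between 0.31 and 0.76 TPM in the control wells of that time. The exposed wells of that time held 15 to 38 counts, and low responder I, at 2.14 TPM, lay inside the range of the high responders. The part of PRF1 in the results at 18 hours was not tested.

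**Figure D2:**
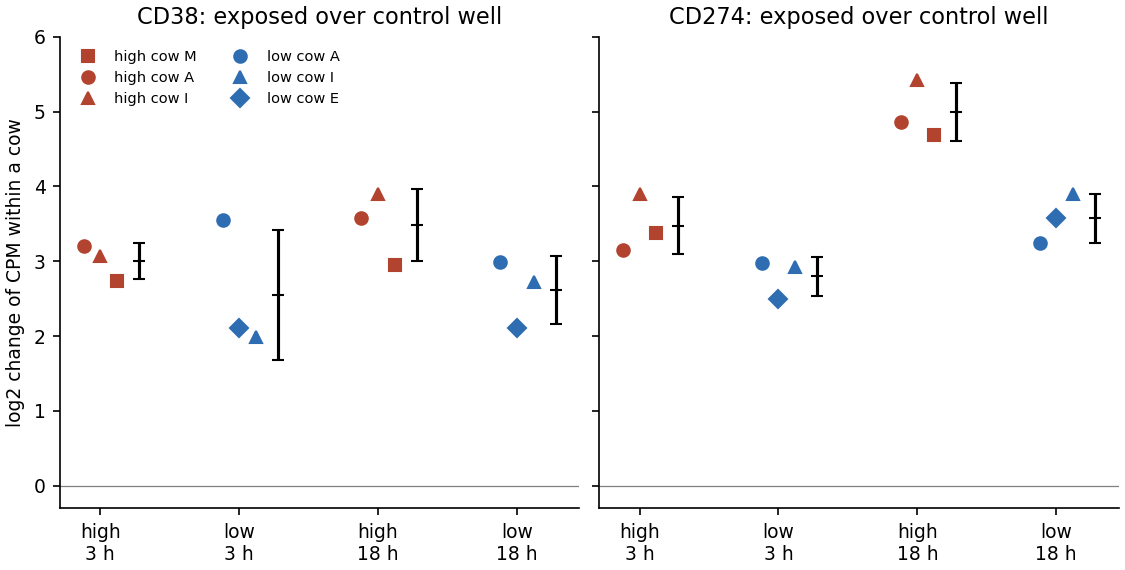
The log2 change of CPM from the control to the exposed well of each cow, for CD38 (left) and CD274 (right) at 3 and 18 hours, with the mean and SD of 3 cows in black. All 12 changes of each gene lie above 0. At 3 hours the groups overlap for CD38 and not for CD274, and neither difference between the groups was called. At that time low responder A has the largest CD38 change, 11.7-fold.

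The time points were then compared. The averaged response of CD274 was larger at 18 than at 3 hours by 1.15 on the log2 scale, or 2.22-fold (SE 0.17, 95% interval 0.78 to 1.52, adjusted p = 0.000158, edgeR), in a comparison that called 10.7% of genes higher. That of CD38 was larger by 0.31 (SE 0.24, 95% interval -0.21 to 0.83), which did not pass the test (adjusted p = 0.337, edgeR). Leaving out 1 cow at 1 time moved this value of CD38 between 0.20 (without low responder E at 3 hours) and 0.48 (without low responder A at 3 hours).

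The control wells were compared between the times as well. CD274 differed in them by -0.70 on the log2 scale between 18 and 3 hours (SE 0.28, adjusted p = 0.479, edgeR), which was not called in a comparison that called 0.0259% of genes. With cows matched by letter, CD274 was lower at 18 hours in the control wells of all 6 cows, between -0.98 in high responder M and -0.01 in high responder I. A fit with a term for these letters gave -0.62 with a smaller error (SE 0.14, adjusted p = 0.0959, edgeR), which was not called either. CD38 in control wells differed by -0.14 (SE 0.51, adjusted p = 0.963, edgeR) and had no common direction among the cows.

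In the exposed wells, again with cows matched by letter and as a description, CD38 was higher at 18 than at 3 hours in all 3 high responders, by 0.58 to 0.70 on the log2 scale. In the low responders it was lower in cow A (-0.79) and cow E (-0.43) and slightly higher in cow I (0.12). CD274 was higher at 18 hours in the 3 high responders by 0.33 to 1.53, while the low responders ranged from -0.09 in cow A to 0.43 in cow E. Exposed wells at 18 hours are part of the difference on which the pair was selected. How many other genes show such a contrast between the groups was not counted.

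**Figure D3:**
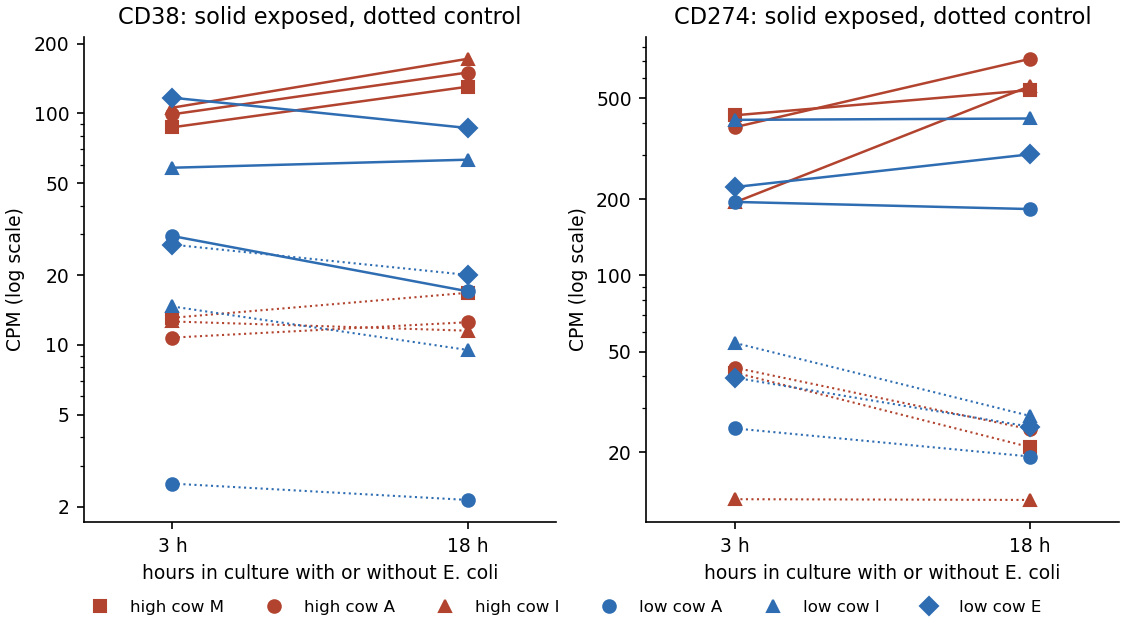
CPM on a log scale at 3 and 18 hours for CD38 (left) and CD274 (right), with exposed wells joined by solid and control wells by dotted lines for cows matched by the letter of the library code. Exposed wells of the 3 high responders climb in both genes. Those of the low responders climb by at most 0.12 (CD38) and 0.43 (CD274) on the log2 scale or fall. Dotted lines of CD274 slope down. The pair was selected on a difference between the groups that includes the exposed wells at 18 hours.

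Ordered by mean level over the 8 conditions, CD38 was highest in exposed wells of high responders at 18 hours (151 ± 20.8 CPM, SD, n = 3), followed by those at 3 hours (97.3 ± 9.50 CPM), and these neighbours did not overlap. Exposed wells of low responders followed, with 68.2 ± 44.5 CPM at 3 hours and 55.5 ± 35.3 CPM at 18 hours. The 4 control conditions came last and overlapped with their neighbours, from 14.8 ± 12.3 CPM in low responders at 3 hours to 10.6 ± 9.01 CPM in low responders at 18 hours. Because of cow A, exposed wells of the low responders at 18 hours also overlapped with control wells. How many other genes separate the exposed wells of high responders by time was not counted. Those at 18 hours also entered the choice of the pair.

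CD274 took the same leading places, with 605 ± 97.1 CPM in exposed wells of high responders at 18 hours and 336 ± 125 CPM at 3 hours. These did not overlap, with the same limits as for CD38. Exposed wells of low responders stood at 300.0 ± 117 CPM at 18 hours and 277 ± 118 CPM at 3 hours and overlapped with each other. A gap of 237 CPM separated them from the control conditions, which ran from 39.5 ± 14.6 CPM in low responders at 3 hours down to 19.5 ± 5.97 CPM in high responders at 18 hours and overlapped from each place to the next.

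Levels of both genes can be set against each other in TPM, relative transcript abundances that take account of transcript length. CD274 was above CD38 in all 24 libraries, with a ratio of TPM between 1.98 in the control well of high responder I at 3 hours and 20.4 in the exposed well of low responder A at 18 hours. In control wells of high responders at 18 hours the ratio had a median of 2.39, and in the exposed wells of the same cows 7.92. In low responders at that time the medians were 5.60 and 12.5, and the ranges of the groups overlapped, since cow A had the highest and cow E the lowest ratio in each kind of well.

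Over the 24 libraries the log2 CPM of CD38 and CD274 had a Pearson correlation of 0.86, which holds the shared contrast of exposed and control wells. For deviations from the mean of each condition, where that contrast is removed, the correlation was 0.38, and CD274 ranked 1772 of 9546 genes by its closeness to CD38. Cows that were high in one gene for their condition were thus only in part high in the other. Low responder E was highest of its group in CD38 in all 4 wells and highest of its group in CD274 in none. Low responder A, by contrast, was lowest of its group in both genes in all 4 wells.

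**Figure D4:**
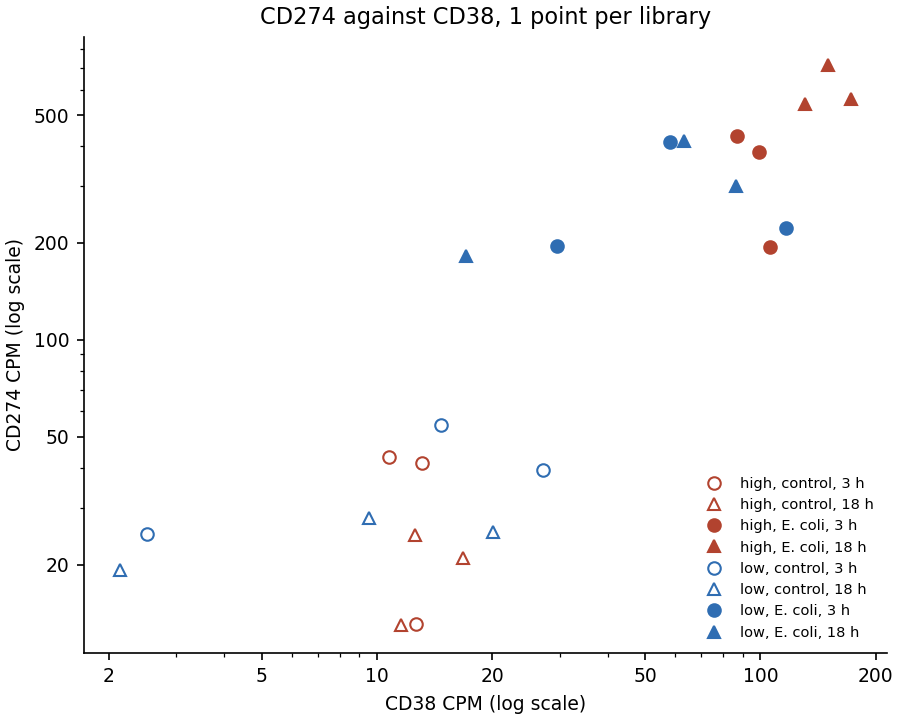
CPM of CD274 against CPM of CD38 on log scales, 1 point per library, filled for exposed and open for control wells. Exposed and control libraries form separate clouds on the CD274 axis, whereas on the CD38 axis the exposed well of low responder A at 18 hours (17.1 CPM) lies among the control wells.

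Genes with the pattern most like each member were found by Pearson correlation of log2 CPM over the 24 libraries, among 9546 genes with a mean of at least 50 counts. For CD38 these were LYN, a Src family kinase of myeloid and B cells (r = 0.95), ENSBTAG00000009812, for which no symbol was at hand (0.94), GSAP (0.94), the arrestin-like ARRDC4 (0.93) and CD72, an inhibitory receptor best known on B cells (0.93). LYN went from 242 ± 3.37 to 686 ± 85.7 CPM in high and from 243 ± 68.7 to 428 ± 98.9 CPM in low responders at 3 hours (SD, n = 3). For CD274 they were FAM49A (0.97), BCL2A1, which protects cells from apoptosis (0.97), and 3 genes without a symbol, all at 0.97. These correlations describe libraries that share exposure, time and cows.

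Among deviations from the condition means, which follow the cows, CD38 was closest to C2, a complement component (r = 0.92), to ENSBTAG00000032515 (0.91) and to TLR2, the receptor for bacterial lipoproteins (0.90). TLR2 shared the unequal spread in control wells at 3 hours, with 289 ± 33.5 CPM in high and 216 ± 76.8 CPM in low responders. CD274 was closest to 2 genes without a symbol (0.93 for both) and to MORC3, a nuclear protein that limits interferon expression (0.93). The 24 deviations come from 6 cows with 4 wells each, so these correlations rest on few animals. They are also the highest among 9546 genes.

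Partners of the members were counted from lists of related genes, of which 23 of 62 could be matched to an identifier. The symbols came from gene lists of the study that are ordered in part by the difference at 18 hours, so no count is given for that difference. Whether matched genes also respond to E. coli more often than others was not tested. The shares over all genes are therefore only a rough guide to the counts below. Of 7 matched genes in the list of PD-1 and co-signalling besides CD274, 6 were tested at 3 hours: 2 rose in the averaged response and 4 were not called, with a median log2 fold change of 0.48 against -0.02 over all genes. Over all genes at 3 hours, 13.5% were called higher and 12% lower. At 18 hours 3 of 7 rose and 2 fell (median 0.57 against -0.02), where 15.1% of all genes were called higher and 21.4% lower.

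PDCD1LG2, or PD-L2, the other ligand of PD-1 and the gene next to CD274 in the RefSeq annotation of ARS-UCD2.0, was almost silent at 3 hours, with 2 to 14 counts per library, and was not tested there. At 18 hours it stood at 7.32 ± 1.69 CPM in exposed wells of high and 3.46 ± 1.54 CPM in those of low responders (SD, n = 3), against 0.14 ± 0.07 and 0.67 ± 0.19 CPM in control wells. It rose by 3.96 on the log2 scale (SE 0.24, adjusted p = 4.08e-07, edgeR), a fitted value that rests on 1 to 11 counts per control well. In the fit of all libraries its response was larger at 18 than at 3 hours by 2.63 (SE 0.55, adjusted p = 0.00196, edgeR). The gene passed the filter of that fit but not that of the 3 hours libraries. The value for 3 hours thus rests on 2 to 14 counts per library, and no conclusion is drawn from this change. PDCD1, the receptor PD-1 itself, fell at 18 hours (log2 -1.84, SE 0.20, adjusted p = 2.30e-05, edgeR), when it was at 10.1 CPM in control wells of both groups and at 1.93 and 4.13 CPM in exposed wells of high and low responders. At 3 hours PDCD1 had a log2 fold change of -0.36 (adjusted p = 0.342, edgeR).

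Other co-signalling genes took different courses. TNFSF9, the ligand of the stimulatory receptor 4-1BB, rose by 4.64 at 3 hours (SE 0.17, adjusted p = 2.04e-07) and by 2.32 at 18 hours (SE 0.08, adjusted p = 1.26e-08, edgeR), so its response shrank while that of CD274 grew. VSIR, an inhibitory molecule also called VISTA, fell by 2.69 at 18 hours (adjusted p = 4.58e-07, edgeR). CD47, the signal that restrains phagocytosis, rose at both times (log2 0.62 and 0.91).

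Of 8 matched genes of NAD and adenosine metabolism besides CD38, 7 were tested at 3 hours, where 2 rose and 5 were not called (median log2 fold change 0.07), and at 18 hours 1 rose and 2 fell among 8 (median -0.14). Beside 13.5% of all genes called higher at 3 hours, and 15.1% called higher and 21.4% lower at 18 hours, the counts at 18 hours are near the shares over all genes. NAMPT, which makes the NAD precursor that replaces what enzymes such as CD38 consume, rose by 2.04 at 3 hours (SE 0.12, adjusted p = 2.56e-06) and by 1.12 at 18 hours (SE 0.07, adjusted p = 4.99e-07, edgeR). PARP14, another consumer of NAD, rose by 1.34 at 3 hours (adjusted p = 2.26e-05, edgeR). At 18 hours ADA, which deaminates adenosine, fell by 2.09 (adjusted p = 8.20e-07) and PARP1 fell by 1.65 (adjusted p = 3.16e-08, edgeR). BST1, the paralogue and neighbour of CD38 in ARS-UCD2.0, could not be matched to an identifier.

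Of 8 matched genes of interferon signalling and of regulators of PD-L1, 6 rose at 3 hours and 1 fell (median log2 fold change 1.35), and at 18 hours 5 rose and 1 fell (median 0.68). Over all genes the shares called higher and lower were 13.5% and 12% at 3 hours and 15.1% and 21.4% at 18 hours. IRF1, which binds the promoter of CD274 in other species, rose by 4.32 at 3 hours (SE 0.14, adjusted p = 1.42e-07) and by 3.95 at 18 hours (SE 0.09, adjusted p = 1.29e-09, edgeR). JAK2, which lies 3 genes from CD274 in ARS-UCD2.0, rose by 2.06 at 3 hours (adjusted p = 3.79e-06) and by 0.71 at 18 hours (adjusted p = 1.30e-05), and the difference between these was called as lower (log2 -1.29, SE 0.15, adjusted p = 2.05e-05, edgeR). HIF1A and IFNAR2 were also called higher, by 1.73 and 1.68 at 3 hours and by 1.23 and 0.75 at 18 hours. CMTM4, whose product stabilises PD-L1 protein, was the gene that fell, with log2 fold changes of -2.49 at 3 and -1.48 at 18 hours. These fitted values rest on few counts, with 3 to 8 per exposed well of high and 0 to 2 per exposed well of low responders at 3 hours, and in low responders alone at 3 hours CMTM4 was not called (adjusted p = 0.0541, edgeR).

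The responses of the list genes were also compared between the times. The change of the response with time was called higher in 1 and lower in 3 of 7 genes of co-signalling, lower in 4 of 8 of NAD and adenosine, and lower in 3 of 8 of interferon signalling. Over all genes 10.7% were called higher and 16.1% lower in this comparison. Those of interferon signalling were JAK2, IFNAR2 and IRF9. PDCD1LG2 was the gene called higher besides CD274 itself, on the few counts given above, so this call is not read as a result.

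**Figure D5:**
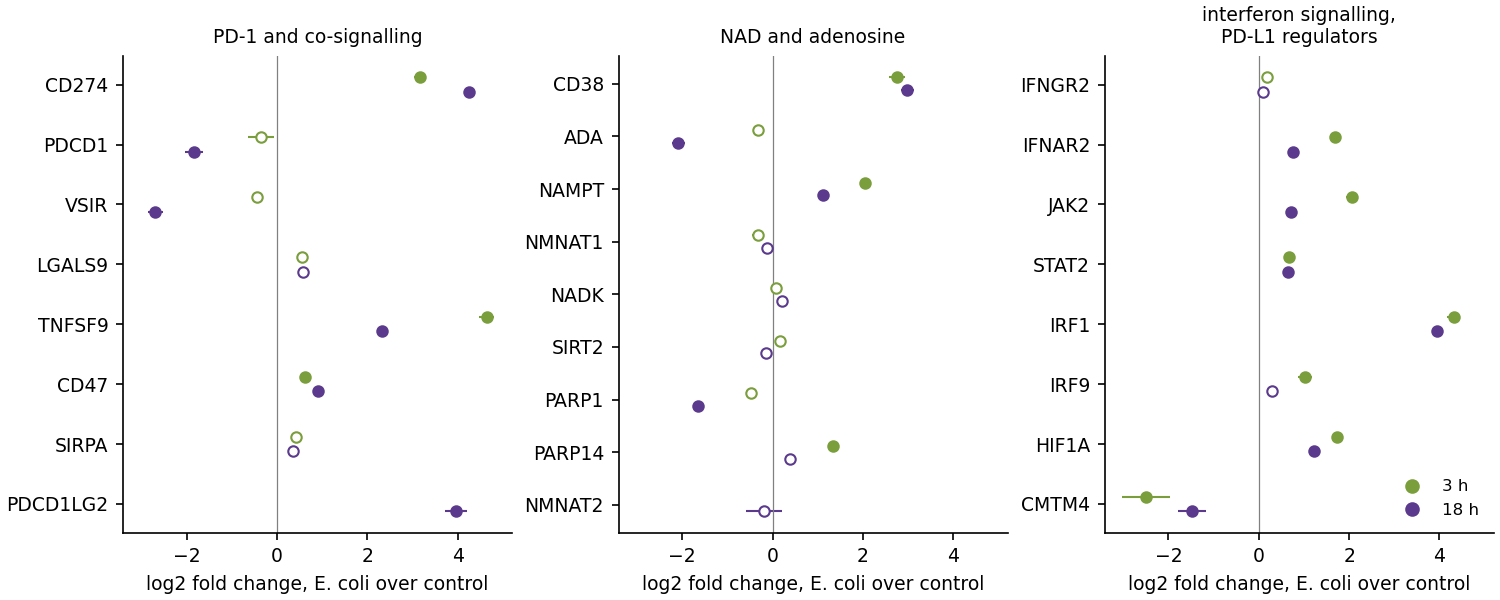
Log2 fold change from control to exposed wells averaged over both responder groups, with its SE, for the members and the matched genes of each list at 3 and 18 hours; filled points passed the call rule. CD38 and CD274 are high at both times, TNFSF9, NAMPT and JAK2 are lower at 18 than at 3 hours, and PDCD1, VSIR, ADA and PARP1 are called as lower only at 18 hours.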

How the data were processed

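Stranded mRNA libraries were sequenced as read pairs, which the authors trimmed (Trimmomatic), aligned to the bovine build UMD 3.1 (STAR) and assigned to Ensembl genes (RSEM). The deposited tables hold, per library and gene, expected counts (estimated read pairs, not normalized), TPM as the authors' RSEM gave it, and transcript and effective lengths in bases. Each member had whole expected counts in every library.

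Expected counts were rounded and analysed in R 4.3.3 with edgeR 4.0.16: filter on low counts by condition, TMM scaling, and a quasi-likelihood model that held a cow term beside separate E. coli effects for high and low responders. Adjusted p values are Benjamini-Hochberg values over all genes of a fit, and SEs were obtained from the log2 fold change and its F statistic. Single kinds of wells were compared without a cow term, and changes with time over all 24 libraries together. Replicates are separate cows. Control and exposed wells were paired by the number of the library code within responder group and time: deviations from condition means correlated at 0.31 to 0.72 for 12 same-number pairs and at -0.55 to -0.01 for 24 others. For letters across times the values were 0.30 to 0.67 and -0.48 to -0.01.

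Named genes are both members, for each the 5 genes with the highest correlation of log2 CPM and the 3 with that of deviations, and list genes called in a comparison described, up to 4 per direction, with PDCD1LG2, PDCD1, BST1, NAMPT, JAK2 and IRF1 whatever their call. Members and lists were chosen with earlier results of these data known. Symbols came from copies of the study's gene lists that were read to 1997 rows each and pair 2803 identifiers, and the fold changes and p-values in those lists were not used. RefSeq's ARS-UCD2.0 gave neighbours only. Alternatives were DESeq2 1.42.0, other size factors, other filters, fits without the cow term, a term for code number, 1 fit of all libraries and leaving out each cow. The fits were tried on simulated data that held no differences between cows, so that trial does not bear on the cow term. No promoter sequence was used here.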

Additional observations from a re-analysis of the deposited data

Results flagged for a closer look

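The averaged response of CD274 to E. coli differed between the times, by 1.15 on the log2 scale (18 minus 3 hours), and was picked out because the test of that change itself passed (adjusted p = 0.000158, edgeR). It kept its direction and call in all 19 alternatives, between 1.04 and 1.25, with adjusted p between 2.45e-08 and 0.0437. The mean log2 change within cows went from 3.47 to 4.99 in high and from 2.80 to 3.57 in low responders. Control wells of CD274 differed by -0.70 between the times, which was not called (adjusted p = 0.479, edgeR). With cows matched by letter, exposed wells differed by 0.33 to 1.53 in high and by -0.09 to 0.43 in low responders. The part of control and of exposed wells in the larger response was not tested.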

How the results depend on the processing

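Over 258 alternatives of 18 tested results of the members, 252 kept the direction and the side of the call rule, and the 28 alternatives of the 18 hours difference, which has no test, kept its direction and moved it by less than the SD between cows. The exception among calls was CD38 in low responders at 3 hours, which was lost without the replicate block for cows (log2 2.22, adjusted p = 0.0547, edgeR). The block changed no other call of a member, and the cause was not tested. In comparisons of wells that were not called, leaving out 1 library turned the sign 5 times. The difference between the groups in control wells at 3 hours ranged from -0.80 (without low responder A) to 0.50 (without E) for CD38 and from -0.57 (without high responder A) to 0.0799 (without high responder I) for CD274. The difference of CD38 in control wells between the times ranged from -0.46 to 0.24. Leaving out cows moved the 3 hours difference of the responses between 0.39 (without low responder I) and 0.99 (without low responder A) for CD38 and between 0.47 (without high responder I) and 0.89 (without high responder A) for CD274, with adjusted p of at least 0.156 (edgeR). At 18 hours this difference, not tested, ranged from 0.64 to 1.21 for CD38 and from 1.23 to 1.57 for CD274.

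For the response difference at 3 hours, edgeR called 20 genes, no filter 103, DESeq2 189, DESeq2 with length offsets 192 and 1 fit of all libraries 165, leaving out 1 cow gave 0 to 506 (the highest without high responder I), and the fits without the block and with a term for code number called 0 (330 and 835 genes with unadjusted p below 0.05). At 18 hours the counts were 190, 435, 395, 398 and 124, 30 to 178 without 1 cow (30 without low responder A and 76 without E), 67 with the code term and 0 without the block (1150 genes with unadjusted p below 0.05). Control wells between groups at 3 hours gave 1 call, 8 with no filter, 2 with the stricter filter, 240 and 248 by DESeq2 and 0 to 28 without 1 library, and exposed wells 9, 51 with no filter, 283 and 287 by DESeq2 and 0 to 72 without 1 library. Control wells between the times gave 3, 55 and 58 by DESeq2, 45 with cows blocked by letter and 1 to 5 without 1 library. Responses at 3 hours fell from 1995 to 829 genes in low and from 3113 to 1824 in high responders without the block, to 603 in low responders with the code term, and to 932 without low responder I and 1153 without A. The cause of these shifts was not tested. Depth limits calls of genes with few counts, such as PDCD1LG2 at 3 hours.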
